A study of Mus musculus with 2 samples.

Results

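Immediate early genes were followed in microglia of mice with and without PARK7/DJ-1. The set held 10 genes, listed by name: Fos, Fosb, Jun, Junb, Jund, Egr1, Ier2, Atf3, Dusp1 and Btg2. The deposited matrices listed 19537 genes, and 15846 of them had at least 1 unique molecular identifier (UMI, the mark of a single captured transcript molecule) in the cells. All 10 genes were listed. Of these, 9 had at least 20 UMIs over both libraries, as had 9085 genes in all, and Fosb did not.

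Microglia are the immune cells that reside in the brain, and the study compared them between both genotypes under systemic inflammation. The KO mice carried the gene-trap allele Gt(XE726)Byg of Park7, the gene of the protein DJ-1, in all tissues, not only in microglia, on a line backcrossed to C57BL/6NCrl. The wildtype mice were their littermates, and per the study's methods the animals were aged 3 to 4 months. All mice had received a single intraperitoneal injection of lipopolysaccharide (LPS, a component of the bacterial outer membrane) at 4 μg per g body weight, 24 h before the cells were taken. CD11b+CD45int cells were sorted and captured in droplets by Drop-seq, which counts transcripts from their 3' ends on barcoded beads. The 2 libraries, labelled KO LPS and WT LPS, are called KO and WT here. Each pooled 1 female and 1 male mouse, so that genotype and library cannot be told apart. No test between genotypes was possible, and all 95% intervals cover counting error only. Untreated mice were not analysed here.

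A cell was a barcode with at least 500 UMIs and at least 100 genes, which gave 320 cells of 9999 barcodes in KO and 1427 of 9999 in WT. The cells held 381305 and 1989011 UMIs, with medians of 963.5 and 1065 per cell. Park7 had 1 UMI in KO and 323 in WT. The libraries shared 0 cell barcodes. All 9 microglia markers were present in both libraries, at a summed 27435 CPM (UMIs per 1e6 UMIs of the cells) in KO and 18905 CPM in WT, and the markers differed unequally, with P2ry12, a receptor of resting microglia, at 3837 against 406 CPM, Aif1 at 934 against 821 CPM and C1qa, a complement gene, at 2840 against 5298 CPM. Choroid plexus markers summed to 2119 CPM in KO and 14.1 CPM in WT, mostly from Ttr. Endothelial markers (3 of 4 and 4 of 4 detected) summed to 81.3 and 15.1 CPM, and astrocyte markers (4 of 5 in each) to 102 and 32.7 CPM, with Aqp4 at 0 in both. Neutrophil markers were at 0 of 5 in KO and 2 of 5 in WT (63.3 CPM), where Ngp, Camp and Ltf were at 0. Monocyte markers summed to 26.2 and 15.6 CPM, with Ly6c2 at 0 in both.

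Immediate early genes are transcribed within minutes of a stimulus, without the need for new protein, when kinase cascades act on transcription factors already bound at their promoters. Their transcripts are short-lived, and many encode transcription factors or proteins that shut the same signal down. In microglia they are known to respond to bacterial products, to neuronal activity and also to the handling of tissue during dissociation. Fos, Fosb, Jun, Junb, Jund and Atf3 belong to the basic leucine zipper (bZIP) proteins, which pair with each other to bind AP-1 sites. Egr1 is a zinc finger factor, Ier2 a small nuclear protein, Dusp1 a phosphatase that inactivates mitogen-activated protein kinases, and Btg2 an antiproliferative protein that recruits messenger RNA deadenylases.

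Promoter windows of 300 bases, from 250 before to 50 after the gene start, were taken from RefSeq (GRCm38.p6) for 8 of the 10 genes. Ier2 and Egr1 had no entry. The windows of Fos, Junb, Dusp1 and Btg2 are shown because they hold the elements found in the set and because these genes lay on different sides of the comparison below. They lie at chr12:85473640-85473939 (plus strand), chr8:84978699-84978998 (minus), chr17:26508423-26508722 (minus) and chr1:134079106-134079405 (minus). Capitals mark matches, on either strand, to the cyclic AMP response element TGACGTCA and its shorter form TGACG (contained in the full element), to the AP-1 site TGANTCA, to the TATA box TATAAA, to the CArG box bound by serum response factor and to the NF-kB site.
Fos: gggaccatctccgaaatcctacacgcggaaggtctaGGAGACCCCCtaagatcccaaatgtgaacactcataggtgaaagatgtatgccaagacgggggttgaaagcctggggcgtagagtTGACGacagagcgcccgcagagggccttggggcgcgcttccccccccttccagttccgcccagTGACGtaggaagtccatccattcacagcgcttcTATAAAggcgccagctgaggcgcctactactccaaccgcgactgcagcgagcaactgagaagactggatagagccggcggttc
Junb: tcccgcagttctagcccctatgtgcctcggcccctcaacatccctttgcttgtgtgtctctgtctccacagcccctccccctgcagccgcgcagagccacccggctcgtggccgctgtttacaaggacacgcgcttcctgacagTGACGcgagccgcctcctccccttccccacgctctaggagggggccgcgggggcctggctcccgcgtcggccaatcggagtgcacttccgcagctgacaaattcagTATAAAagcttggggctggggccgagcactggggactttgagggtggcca
Dusp1: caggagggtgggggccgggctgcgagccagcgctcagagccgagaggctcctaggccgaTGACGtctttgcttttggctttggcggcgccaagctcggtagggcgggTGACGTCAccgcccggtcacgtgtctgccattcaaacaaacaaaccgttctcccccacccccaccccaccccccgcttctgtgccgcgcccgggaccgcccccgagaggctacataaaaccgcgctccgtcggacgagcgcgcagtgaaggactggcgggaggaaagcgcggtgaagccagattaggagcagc
Btg2: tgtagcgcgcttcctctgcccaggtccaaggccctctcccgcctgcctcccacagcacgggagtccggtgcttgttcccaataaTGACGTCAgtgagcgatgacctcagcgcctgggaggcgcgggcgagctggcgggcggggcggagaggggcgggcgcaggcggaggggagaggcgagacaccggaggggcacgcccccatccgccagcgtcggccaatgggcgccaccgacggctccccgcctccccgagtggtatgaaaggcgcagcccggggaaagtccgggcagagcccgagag

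The short element TGACG was present in 6 of 8 windows, namely those of Fos, Fosb, Junb, Atf3, Dusp1 and Btg2, against 20.8% of 32851 RefSeq promoters of the same length. The full element TGACGTCA was found in Dusp1 and Btg2 (1.79% of all promoters). TATAAA was found in Fos and Junb (13.6%) and an NF-kB site in Fos and Fosb (8.46%). Relative to the annotated gene start, TATAAA began at position -33 in Fos and at position 0 in Junb. The GC box GGGCGG, not in capitals, was found in 6 of 8 (35.7%). No window of the set held TGANTCA (7.81%) or a CArG box (1.63%) in these letters. Sequence farther upstream than the windows was not searched, and Egr1 and Ier2 had no window. Whether these genes have such sites elsewhere can therefore not be read from the windows. Dusp1 and Btg2, the pair with the full element, had ratios on opposite sides of 1 in the comparison of the libraries. A match describes the letters only.

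In the GENCODE annotation (vM39, GRCm39), 4 of the 10 genes were made of a single exon (Jun, Junb, Jund and Ier2), against 4.35% of protein-coding genes. The pentamer ATTTA, the core of AU-rich elements that mark short-lived transcripts, was found in the 3' untranslated region of 9 of 10 genes, Ier2 being the exception, and of 70.7% of all protein-coding genes. Its density was 5.80 per kb in Dusp1, 4.91 in Fos, 4.12 in Junb and 3.24 in Jun, against a median of 1.38 over 19754 genes. It was 2.53 per kb in Atf3, 2.27 in Btg2, 1.88 in Jund and 1.63 in Egr1. Fosb, at 0.466, and Ier2 lay below the median. Several of the genes overlap others on the opposite strand, among them Junb with Prdx2, Jun with Junos and Dusp1 with Ergic1. Whether counting used the strand was not given in the sources used here, so counts of these genes are uncertain.

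In the cells, the set as a whole stood at almost the same level in both libraries. The 10 genes together had 772 UMIs in KO and 3899 in WT. This made 2025 CPM (1884 to 2173) in KO and 1960 CPM (1899 to 2023) in WT, a ratio of 1.03 (0.955 to 1.12). Within the set, single genes lay on opposite sides. By log2 ratios with a prior count of 0.5, on which all calls by fold rest, Jund, Btg2 and Atf3 were at least 1.5-fold higher in KO, and Ier2, Dusp1 and Junb at least 1.5-fold lower. Fos, Jun and Egr1 lay within 1.5-fold.

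Of the 9 genes with at least 20 UMIs, 3 were thus higher and 3 lower. Among all 9085 genes with as many UMIs, 26.2% were higher and 25.8% lower by the same fold. The share past the fold in each direction was therefore close to that of genes at large. The median log2 ratio was 0.28 for the 9 genes and 0.03 for all genes. Intervals of the ratios left out 1 for Jund, Btg2 and Egr1 on the higher side and for Ier2, Dusp1 and Junb on the lower. The share of all genes by this criterion was not computed, so no excess in the set is read from these intervals.

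**Figure D1:**
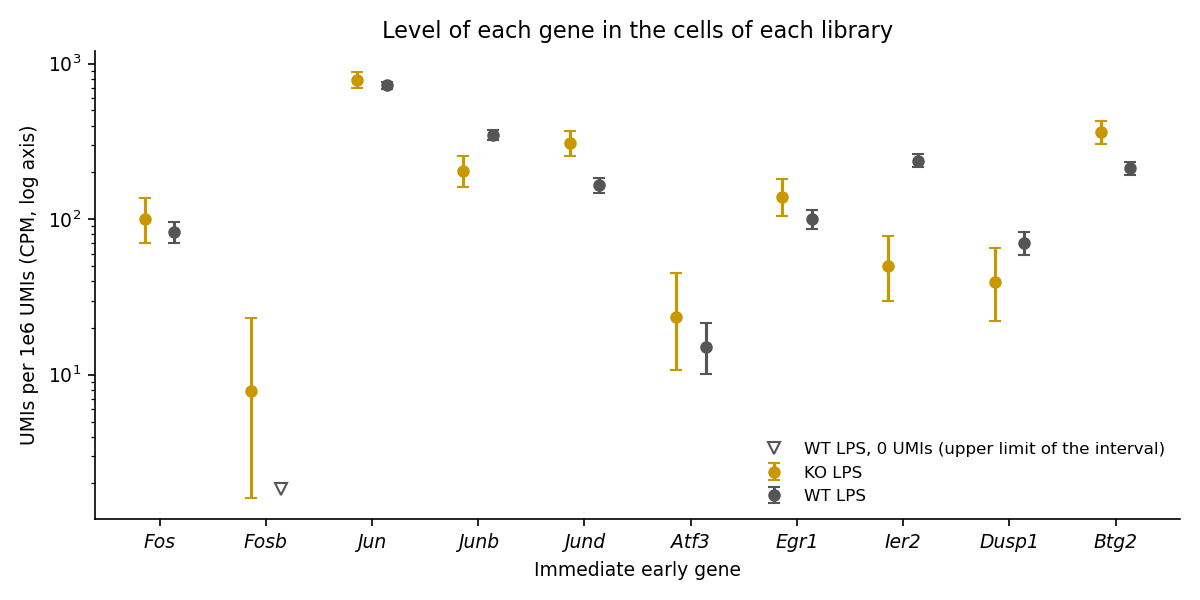
Level of each of the 10 genes in the cells of KO (gold) and WT (grey), in CPM on a log axis, as points with exact 95% Poisson intervals; the open triangle is the upper limit for Fosb, which had 0 UMIs in WT. The intervals of both libraries are apart for Junb, Jund, Ier2 and Btg2. How many of all genes have intervals apart was not computed.

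Among the AP-1 subunits, Fos (chr12:85520658-85524047, plus strand, GRCm39 as for all gene positions here), the partner that needs a Jun protein to bind DNA, had 38 UMIs in KO and 165 in WT. Its level was 99.7 CPM (70.5 to 137) and 83.0 CPM (70.8 to 96.6), a ratio of 1.20 (0.821 to 1.72). The intervals overlapped, so that no difference was detectable at this depth. Fosb (chr7:19036621-19043976, minus), a close relative of Fos, had 3 UMIs in 3 cells of KO and 0 UMIs in WT, where the floor of 3 counts corresponds to 1.51 CPM. Fosb was thus at or under the floor in both libraries, and no fold is given.

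Jun (chr4:94937271-94940459, minus), the AP-1 subunit activated by the stress kinase JNK, had 301 UMIs in KO and 1445 in WT. The levels of 789 CPM (703 to 884) and 726 CPM (690 to 765) gave a ratio of 1.09 (0.956 to 1.23). The intervals overlapped. Jun gave 39.0% of the set's UMIs in KO and 37.1% in WT.

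Junb (chr8:85701113-85705359, minus), a Jun protein that activates transcription less strongly than Jun on many promoters, had 78 UMIs in KO and 694 in WT. Its level was 205 CPM (162 to 255) against 349 CPM (323 to 376). Junb was lower in KO, with a ratio of 0.586 (0.458 to 0.742), and the intervals of the levels were apart. With every cell thinned to 500 UMIs, in a single random draw, its log2 ratio was -0.36 instead of -0.76 and lay within 1.5-fold. As a mean of single-cell CPM it was -0.67, past the fold. Jund (chr8:71151599-71153265, plus), the Jun protein that is most constant in resting cells, went the other way. It had 118 and 328 UMIs, or 309 CPM (256 to 371) and 165 CPM (148 to 184), a ratio of 1.88 (1.51 to 2.32), also with intervals apart.

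The make-up of the Jun family therefore differed while its sum did not. Jun, Junb and Jund together had a ratio of 1.05 (0.952 to 1.16). Jun took 60.6% (56.1 to 64.9) of the 497 family UMIs in KO and 58.6% (56.6 to 60.5) of the 2467 in WT. Junb took 15.7% (12.6 to 19.2) in KO against 28.1% (26.4 to 29.95) in WT, and Jund 23.7% (20.1 to 27.7) against 13.3% (12 to 14.7). For each Jund UMI there were 0.661 Junb UMIs in KO and 2.12 in WT, a 3.20-fold difference (2.31 to 4.45) that does not depend on the scaling of the libraries.

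**Figure D2:**
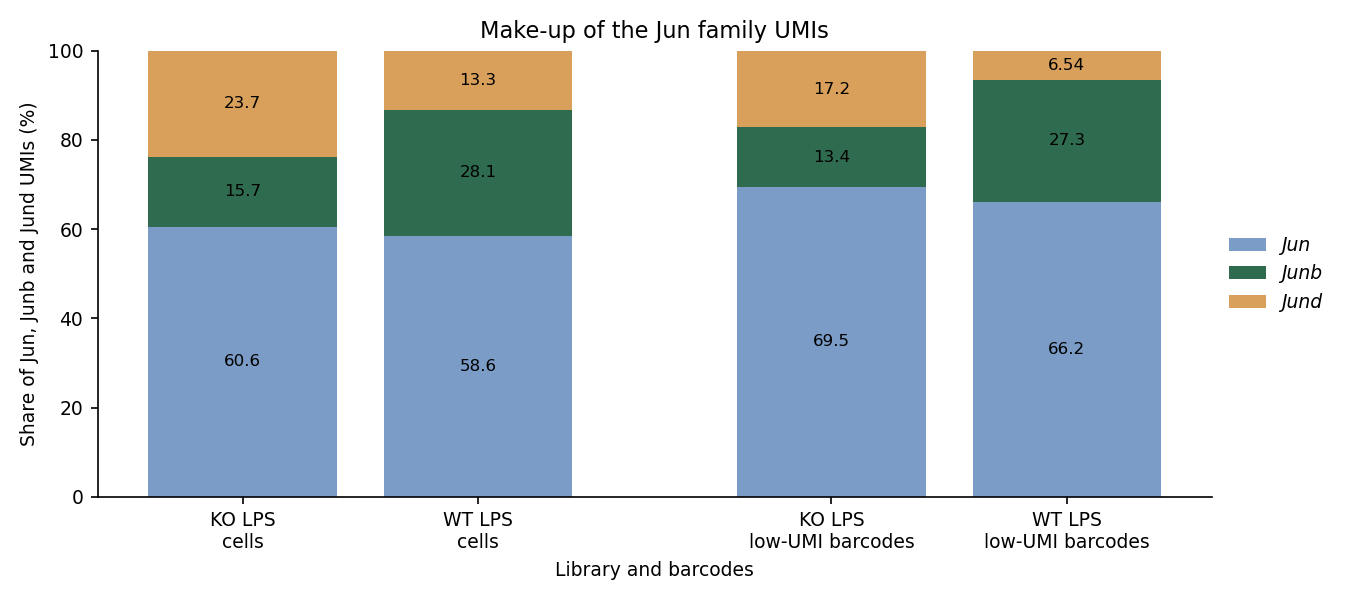
Make-up of the UMIs of Jun (blue, bottom), Junb (green, middle) and Jund (orange, top), in percent, for the cells and for barcodes of at most 100 UMIs in each library. Junb took the smaller part in KO in both kinds of barcode, 15.7% against 28.1% in cells and 13.4% against 27.3% in low-UMI barcodes.

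Atf3 (chr1:190902493-190950241, minus), a bZIP factor that restrains inflammatory genes after stimulation of Toll-like receptors, had few UMIs in either library, with 9 UMIs in KO and 30 in WT, or 23.6 CPM (10.8 to 44.8) and 15.1 CPM (10.2 to 21.5). Its ratio of 1.56 (0.654 to 3.38) lay past the fold, but the interval held 1 and a difference was not detectable.

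Egr1 (chr18:34992876-34998049, plus), which links growth factor and stress signals to late genes, had 53 UMIs in KO and 199 in WT. The levels were 139 CPM (104 to 182) and 100.05 CPM (86.6 to 115), a ratio of 1.39 (1.01 to 1.89). The intervals of the levels overlapped. In KO, 30.2% of the Egr1 UMIs came from 3 cells, against 11.1% in WT. Without cells that held 2 or more UMIs of markers of other cell types (42 of KO and 95 of WT), Egr1 had 29 and 168 UMIs and a ratio of 1.01 (0.659 to 1.51).

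Ier2 (chr8:85387960-85389483, minus), a nuclear protein of the immediate early response whose gene lacks introns, differed most. It had 19 UMIs in KO and 474 in WT. This was 49.8 CPM (30.0 to 77.8) against 238 CPM (217 to 261), 4.78-fold lower in KO (3.03 to 8.01). The ratio of KO over WT was 0.209 (0.125 to 0.330), the only one of the set past 2-fold. One cell of KO held 6 of the 19 UMIs, while 13 other cells held 1 each.

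Ier2 also differed against every other gene of the set it was set beside, independent of library scaling. For each Btg2 UMI there were 0.138 Ier2 UMIs in KO and 1.12 in WT, an 8.11-fold difference (4.89 to 14.1). Per Jun UMI the difference was 5.19-fold (3.22 to 8.85), per Egr1 UMI 6.63-fold (3.75 to 12.2) and per Junb UMI, which was itself lower, 2.80-fold (1.65 to 4.97). Without Ier2, the summed level of the other genes had a ratio of 1.15 (1.06 to 1.24).

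Dusp1 (chr17:26724564-26781102, minus), which ends the p38 and JNK signals that induce it, had 15 UMIs in KO and 140 in WT. Its level was 39.3 CPM (22.0 to 64.9) and 70.4 CPM (59.2 to 83.1), a ratio of 0.559 (0.305 to 0.954). The intervals of the levels overlapped, although that of the ratio lay below 1. Btg2 (chr1:134002908-134015033, minus) had 138 and 424 UMIs, or 362 CPM (304 to 428) in KO and 213 CPM (193 to 234) in WT. It was higher in KO, with a ratio of 1.70 (1.39 to 2.06) and intervals of the levels apart. Between these genes with the full cyclic AMP response element, there were 0.109 Dusp1 UMIs per Btg2 UMI in KO and 0.330 in WT, a 3.03-fold difference (1.70 to 5.76).

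Markers of other cell types moved with the comparison, above all those of the choroid plexus. With the cells that held 2 or more UMIs of such markers left out, the ratios were 0.185 (0.0976 to 0.320) for Ier2, 0.593 (0.449 to 0.771) for Junb and 0.466 (0.218 to 0.886) for Dusp1. On the higher side they were 2.00 (1.57 to 2.52) for Jund and 1.86 (1.5 to 2.30) for Btg2. Each of these 5 differences was thus present without those cells. Fos had a ratio of 1.05 (0.670 to 1.59), and that of Atf3, at 1.41 (0.473 to 3.52), fell within 1.5-fold.

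**Figure D3:**
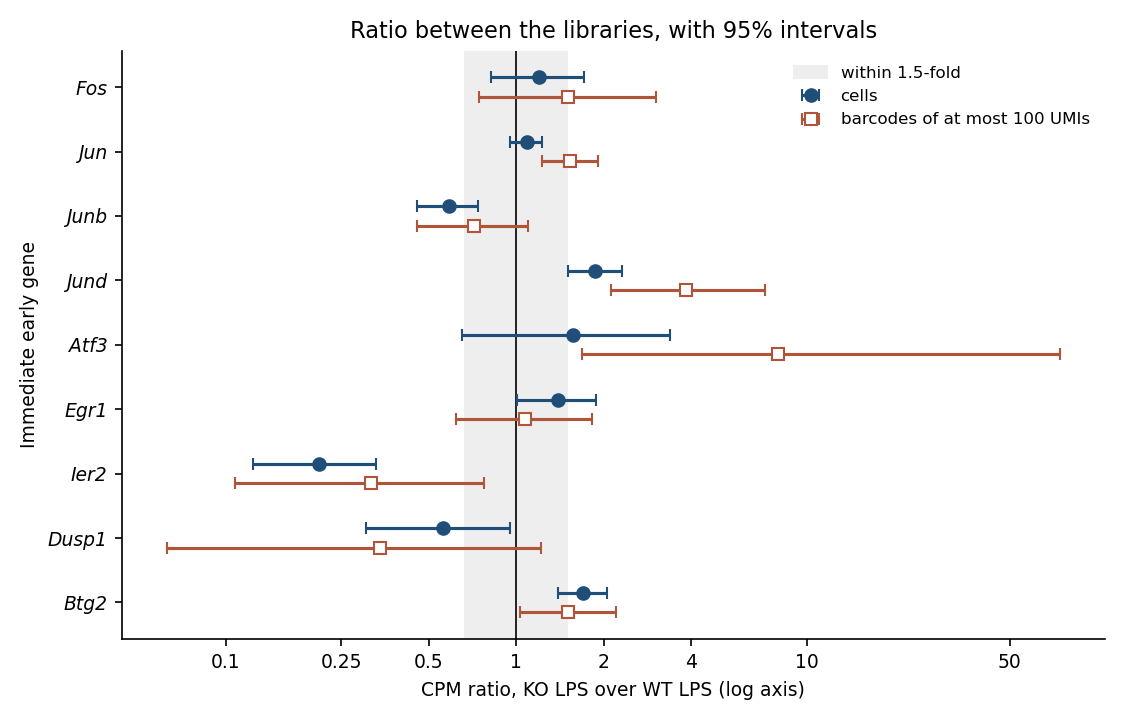
Ratio of KO over WT, on a log axis with exact 95% intervals, for the 9 genes with at least 20 UMIs, in cells (filled circles) and in barcodes of at most 100 UMIs (open squares); the grey band is 1.5-fold to either side of 1. Ier2 lies farthest to the left in cells, at 0.209, and Jund farthest to the right, at 1.88.

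Barcodes of at most 100 UMIs were taken as the background of each library, as droplets without a cell hold free RNA; what they hold was not tested. There were 9236 such barcodes with 198723 UMIs in KO and 4270 with 315748 UMIs in WT, at medians of 18 and 75 UMIs, so that the backgrounds differ in depth between the libraries. The summed set stood there at 1801.5 CPM (1620 to 1998) in KO and 1337 CPM (1212 to 1470) in WT, a ratio of 1.35 (1.17 to 1.56). Several of the ratios seen in cells had the same direction in these barcodes. Jund had a ratio of 3.83 (2.13 to 7.19) from 41 and 17 UMIs, and Ier2 of 0.318 (0.108 to 0.776) from 6 and 30 UMIs. Btg2 stood at 1.51 (1.03 to 2.21), Junb at 0.716 (0.456 to 1.10) and Dusp1 at 0.340 (0.0627 to 1.22). Jun, which did not differ in cells, had a ratio of 1.53 (1.23 to 1.91) in the low-UMI barcodes. The part of free RNA in the differences between cells was not tested.

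Within a library, cells and low-UMI barcodes differed for some of the genes. In WT, Jund was 3.06-fold higher in cells (1.88 to 5.32), Ier2 2.51-fold (1.73 to 3.76), Junb 1.55-fold (1.21 to 2.01) and Jun 1.33-fold (1.14 to 1.57). In KO, of these 4 genes, Jund was 1.5-fold higher in cells (1.04 to 2.20), while the intervals of Ier2 (0.634 to 5.05), Junb (0.832 to 1.98) and Jun (0.779 to 1.15) held 1. Fos and Egr1 did not differ detectably between cells and low-UMI barcodes in either library.

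Shares of cells were compared after every cell had been thinned to 500 UMIs, and the background is the share that droplets of 500 UMIs drawn from the low-UMI barcodes would reach. Ier2 was present in 2.19% of the cells of KO (0.884 to 4.45) and 9.88% of those of WT (8.38 to 11.5), with backgrounds of 1.5% and 4.64%. The share of WT lay above its background and that of KO did not lie beyond it within counting error. Without thinning, the shares were 4.38% and 23.3%.

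Jund was present in 13.75% (10.2 to 18.0) and 8.34% (6.96 to 9.90) of thinned cells, above backgrounds of 9.80% and 2.66%, and in 25.3% and 17.9% without thinning. Btg2 was present in 16.25% (12.4 to 20.8) and 9.81% (8.32 to 11.5). Both Btg2 shares held their backgrounds of 13.4% and 9.06% within the interval, and without thinning they were 29.7% and 21.7%. Junb was present in 10.6% (7.47 to 14.5) of the cells of KO, where the background was 7.74%, and in 13.7% (12 to 15.6) of those of WT, where it was 10.6% and lay below the interval. The unthinned Junb shares were 17.5% and 30.6%.

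Dusp1 was present in 1.88% and 3.36% of thinned cells (backgrounds 0.752% and 2.19%), and in 3.75% and 8.13% without thinning. Jun was present in 27.2% (22.4 to 32.4) of KO, below its background of 34.2%, and in 26.4% (24.1 to 28.8) of WT, where the background was 23.8%. The unthinned shares of Jun were 46.9% and 46.95%. The shares of Egr1, at 4.69% and 3.92%, lay below backgrounds of 6.10% and 5.69%, and unthinned they were 7.81% and 9.39%. A share at or below its background does not show where the transcripts came from, and their origin was not tested.

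Fos was present in 5.0% and 3.43% of thinned cells, near its backgrounds of 4.43% and 2.96%, and in 8.44% and 8.90% of unthinned cells. The order of the Fos shares turned without thinning and with another random draw, so no order is read from them. Atf3 was present in 1.25% and 0.981% of thinned cells, with backgrounds of 2.48% and 0.316%, and in 2.5% and 1.89% without thinning. Fosb was present in 0.313% of thinned cells of KO and in 0 of 1427 cells of WT, with backgrounds of 0. At least 1 UMI of any gene of the set was present in 55.0% (49.4 to 60.5) and 53.1% (50.5 to 55.7) of thinned cells, against backgrounds of 59.4% and 48.8%, and in 75.3% and 75.5% without thinning.

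**Figure D4:**
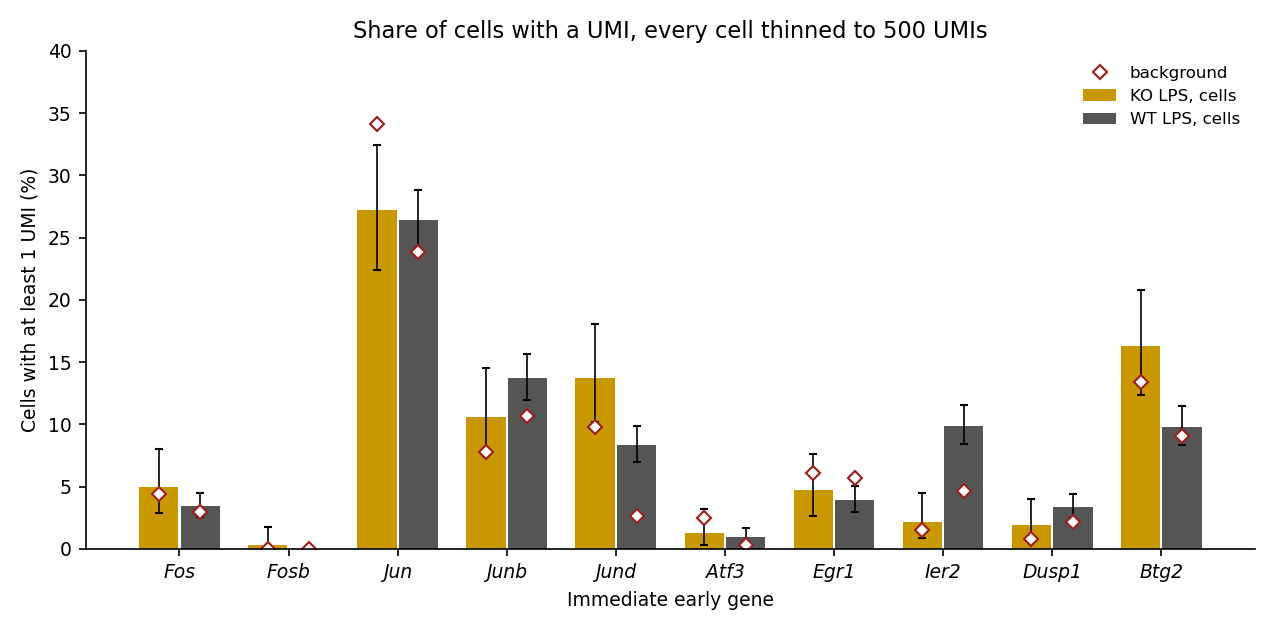
Share of cells with at least 1 UMI of each gene, in percent, after thinning to 500 UMIs, for KO (gold bars) and WT (grey bars), with exact 95% binomial intervals; open diamonds are the share that droplets drawn from the low-UMI barcodes would reach. Ier2 and Jund in WT lie well above their diamonds, while Jun in KO lies below its diamond.

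Cells rarely carried many of these transcripts. With 500 UMIs a cell, 45.0% of the cells of KO and 46.9% of those of WT held none of the set, and 10% (6.94 to 13.8) and 10.6% (9.03 to 12.3) held 3 UMIs or more, against backgrounds of 6.28% and 3.03%. At least 5 UMIs were found in 1.88% (0.691 to 4.04) and 1.75% (1.14 to 2.58). The libraries did not differ detectably in these shares of cells.

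A single cell of KO stood apart. It held 26 UMIs of the set among 1036, or 25097 per 1e6, from 8 of the 10 genes: 8 of Egr1, 6 of Ier2, 4 of Junb, 2 each of Fos, Jun and Btg2, and 1 each of Jund and Atf3. The cell also held 20 UMIs of microglia markers and 2 of markers of other cell types. It provided 6 of the 19 Ier2 UMIs of KO. By the same level per 1e6, the highest cell of WT held 12 UMIs of the set among 688, of which 7 were of Jun. The most UMIs of the set in any cell of WT were 65.

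Between cells, the counts of a few genes of the set were more uneven than those of most genes. The Fano factor (variance over mean of the thinned counts) was 2.18 for Ier2 and 2.04 for Egr1 in KO, against a 99th percentile of 1.91 over the 3830 genes with at least 20 UMIs in KO. Ier2, with 19 UMIs of which 6 came from 1 cell, lies outside that class of genes. In WT, Ier2 had 1.09 and Egr1 1.18, against a median of 1.04 and a 90th percentile of 1.19 over 8563 genes with at least 20 UMIs. Jun was the most uneven gene of the set in WT, at 1.36, and had 1.40 in KO.

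Pairs of the genes went together weakly across cells. Among the 18 pairs of WT for which independent shares would give at least 5 cells with both genes, the observed number was 1.19 to 2.08 times that number (median 1.39), and among 5 such pairs of KO 0.920 to 1.68 times (median 1.19). The median Pearson correlation of thinned counts across cells, which share a library and a depth, was 0.07 over 45 pairs in KO (320 cells) and 0.03 over 36 pairs in WT (1427 cells). The highest value in WT was 0.13, for Junb and Jund, the pair with opposite ratios between libraries. Both genes were present in 34 thinned cells of WT, where independent shares would give 16.3. In KO the 3 highest values, 0.37 for Egr1 and Atf3, 0.36 for Egr1 and Ier2 and 0.33 for Ier2 and Atf3, rested on 2 cells with both genes or fewer. These correlations are weak and are given as a description.

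The genes whose thinned count went most with the summed set across cells, out of 2455 others with at least 200 UMIs, were Cst3, C1qb, Tmsb4x, Actb, C1qa, Fxr1, Gm17087 and Ctss. Their correlations, as means of both libraries, ran from 0.17 down to 0.11, against a median of 0.00 and a 99th percentile of 0.09 over all candidates. The means of Fxr1 (0.23 in KO and 0.05 in WT) and Gm17087 (0.20 and 0.04) came mostly from KO. That of Ctss (0.07 and 0.16) came more from WT. Across cells, the summed set had a correlation of -0.13 with mitochondrial UMIs in both libraries, and of 0.19 (KO) and 0.09 (WT) with the UMIs of other immediate early genes. With microglia marker UMIs it was 0.06 in KO and 0.18 in WT.

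The depth of a cell did not change the direction for the genes that differed. In cells of under 1000 UMIs (172 of KO and 657 of WT) the ratio was 0.233 (0.0916 to 0.496) for Ier2, 1.94 (1.32 to 2.81) for Jund and 1.98 (1.38 to 2.81) for Btg2. In cells of 1000 UMIs or more (148 and 770) it was 0.197 (0.101 to 0.349) for Ier2, 1.80 (1.37 to 2.35) for Jund and 1.59 (1.24 to 2.02) for Btg2. Junb had 0.739 (0.478 to 1.11) in the shallower and 0.532 (0.389 to 0.714) in the deeper cells, so its interval held 1 in the former. Dusp1 had 0.300 (0.0592 to 0.944) and 0.696 (0.348 to 1.27), and its interval held 1 in the deeper cells.

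Sex was read from UMIs of Xist and of Y-linked genes. In KO, 200 cells had Xist and no Y-linked UMI and 12 had a Y-linked UMI and no Xist, against 565 and 195 in WT. Both kinds of UMI were present in 9 and 80 cells, and neither in 99 and 587, which were assigned to no sex. The study split cells by the level of Xist alone, so its sexes are not those used here. By the rule used here, few cells of KO could be assigned to the male mouse. In the Xist cells, Ier2 had a ratio of 0.230 (0.120 to 0.403), Junb of 0.678 (0.501 to 0.903), Jund of 1.99 (1.47 to 2.68) and Btg2 of 2.02 (1.55 to 2.61). Junb thus lay within 1.5-fold there, and Dusp1 had a ratio of 0.604 (0.315 to 1.08) whose interval held 1. Egr1 stood at 188 against 86.4 CPM there, a ratio of 2.18 (1.48 to 3.18) past the fold. The summed set had a ratio of 1.15 (1.05 to 1.27) in the Xist cells.

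The 12 Y cells of KO held 15 UMIs of the set, 6 each of Jun and Btg2, 2 of Junb and 1 of Fos. Ier2 had 0 UMIs there and 82 in the Y cells of WT, and Jund had 0 and 53. Within WT, where both sexes had more cells, the summed set stood at 1894 CPM in Xist cells and 2000.3 CPM in Y cells, a ratio of 0.947 (0.862 to 1.04). Dusp1 was 2.28-fold higher in the Xist cells of WT (1.23 to 4.61), with 72 UMIs against 12, and each sex there is 1 mouse. Atf3 was also higher in the Xist cells of WT, at 7.97-fold (1.28 to 330) from 21 and 1 UMIs, while Btg2 was lower, with a ratio of 0.750 (0.567 to 0.997). Within KO the ratio of the summed set in Xist over Y cells was 2.11 (1.27 to 3.79), with the 15 UMIs of the Y cells behind it.

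Related genes were described by lists, given beside the 26.2% higher and 25.8% lower of all genes. Counts cover genes with at least 20 UMIs, whereas the highest and lowest genes named below are those among genes with at least 50 UMIs. The 34 other immediate early genes, of which 31 were in the matrices and 22 had at least 20 UMIs, spread widely: 4 were higher in KO, 8 lower and 10 within 1.5-fold, with a median log2 ratio of 0.00. Rhob, a small GTPase, was highest at 876 against 269 CPM (3.26-fold, 2.83 to 3.74). Errfi1, an inhibitor of epidermal growth factor receptor signalling, was 2.81-fold higher (1.57 to 4.89), and the kinase gene Sgk1 2.08-fold (1.68 to 2.58). Lowest were Ier3, with 2 and 258 UMIs and a ratio of 0.0404 (0.00487 to 0.148), the transcription factor gene Klf4, at 7.87 against 88.5 CPM, and Socs3, a feedback inhibitor of cytokine signalling, at 15.7 against 137 CPM.

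Of 13 bZIP genes that can pair with or act beside AP-1, 4 were higher, 3 lower and 6 within the fold. The median log2 ratio was -0.30, whereas the summed list had a ratio above 1, at 1.33 (1.26 to 1.41). Maf alone gave 817 of its UMIs in KO and 1713 in WT. Cebpa, a factor of myeloid identity, was highest with a ratio of 4.27 (3.01 to 6.03), followed by Maf at 2.49 (2.29 to 2.71) and Batf3 at 2.40 (1.40 to 4.01). Cebpb, which drives inflammatory genes, had a ratio of 0.264 (0.198 to 0.345), the AP-1 repressor gene Jdp2 of 0.227 (0.0723 to 0.545), and the antioxidant factor gene Nfe2l2 of 0.728 (0.606 to 0.868).

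The kinases and serum response factor partners that act upstream were measured by 18 genes, of which 6 were higher, 1 lower and 11 within the fold (median log2 ratio 0.28). Mapk8, which encodes the kinase JNK1, was highest at 2.02 (1.21 to 3.28), then Mapk14, which encodes p38α, at 1.91 (1.36 to 2.66) and Map2k1 at 1.88 (1.21 to 2.84). Mapkapk2, a substrate kinase of p38, was lowest at 0.535 (0.223 to 1.11), and Map2k3 lay within the fold at 0.798 (0.408 to 1.44).

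Beside Dusp1, the list of other phosphatases and feedback genes had 8 genes with enough UMIs, of which 4 were higher, 1 lower and 3 within the fold (median 0.51 on the log2 scale). Among those with at least 50 UMIs, Dusp7 was highest at 3.48 (2.38 to 5.04), then Dusp3 at 1.53 (1.06 to 2.17), with Dusp6 at 1.31 (1.10 to 1.54). Tsc22d3, a glucocorticoid-induced gene, was lowest at 0.615 (0.415 to 0.884), followed by Dusp16 at 0.630 (0.242 to 1.38), whose log2 ratio of -0.58 with the prior count lay just within the fold, and Spred1 at 1.02 (0.760 to 1.34).

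Around Btg2, 11 genes of the BTG/TOB family and the deadenylase complexes had 4 higher, 0 lower and 7 within the fold, and a median log2 ratio of 0.53. Cnot8, a catalytic deadenylase subunit, had 1.62 (1.04 to 2.44), Tob2 1.58 (1.06 to 2.30) and Cnot6l 1.52 (1.12 to 2.05). The lowest were Cnot7 at 0.685 (0.352 to 1.23), Cnot3 at 0.833 (0.562 to 1.20) and Cnot6 at 1.17 (0.702 to 1.87).

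Heat shock genes, which like immediate early genes can respond to handling of the tissue, moved in a single direction. All 9 with at least 20 UMIs were at least 1.5-fold lower in KO, with a median log2 ratio of -1.13. The 11 genes together stood at 2725 CPM in KO and 6208 CPM in WT, a ratio of 0.439 (0.412 to 0.468). Hspd1, a mitochondrial chaperonin, was lowest of the named genes at 0.352 (0.260 to 0.466), then Hsp90ab1 at 0.417 (0.381 to 0.455) and Hsph1 at 0.447 (0.272 to 0.699). Dnaja1, Dnajb1 and Hspe1 were the nearest to 1, at 0.553, 0.545 and 0.504. Across cells, the summed set had a correlation with heat shock UMIs of 0.10 in KO and 0.06 in WT. The part of tissue handling in the levels of either group of genes was not tested.

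**Figure D5:**
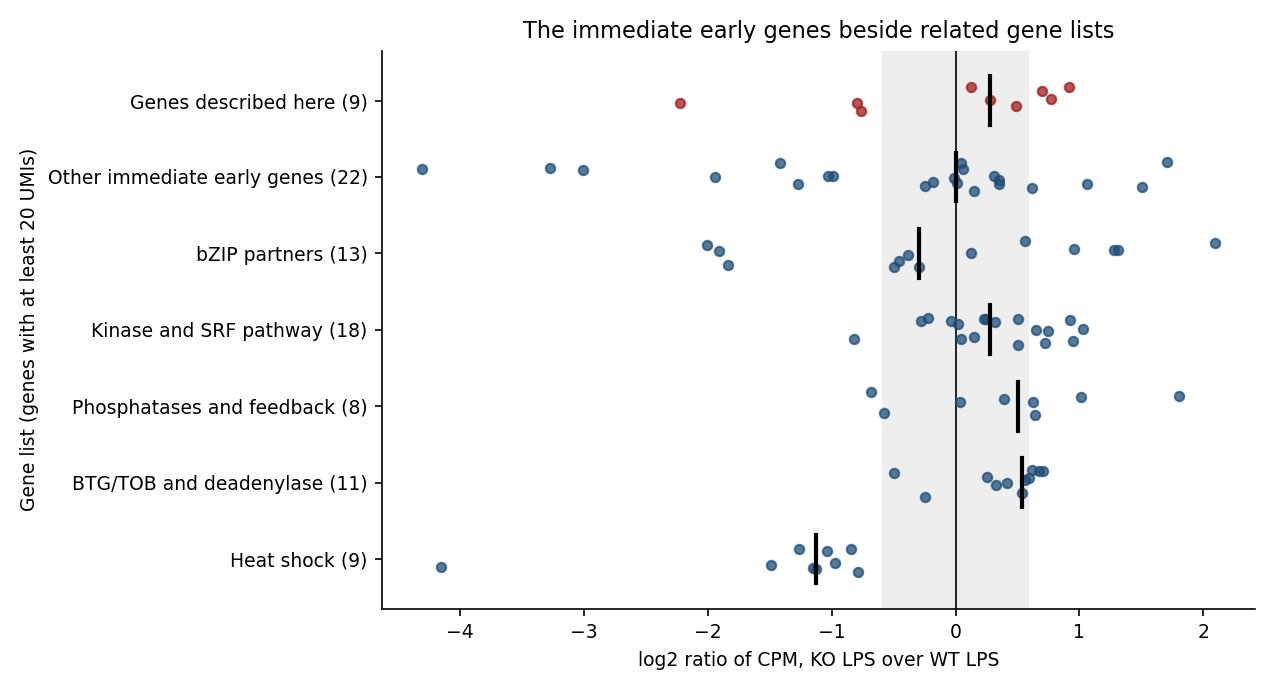
Log2 ratio of KO over WT for each gene with at least 20 UMIs, by gene list (number of genes in brackets), with the genes described here in red; the black bar is the median of a list and the grey band is 1.5-fold to either side of 0. The 9 genes described here lie on both sides of 0 with a median of 0.28, and all 9 heat shock genes lie to the left of the band.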

How the data were processed

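The deposited values are raw counts of UMIs for each gene and barcode, in 1 matrix per library that the authors had not filtered to cells. The submitters' processing notes name STAR, bcl2fastq 2.0 and the builds mm9 and mm10, with no role given; the strand setting of counting was not given in the sources used here. Genes listed for only 1 library (5616 missing in KO, 3036 in WT) were read as 0.

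Calculations ran in Python 3.11.15 with scipy 1.17.1, numpy 2.4.6, matplotlib 3.10.9 and pandas 2.3.3. Barcodes of at least 500 UMIs and 100 genes were kept as cells, and UMIs were summed and given per 1e6 (CPM). The cells hold 381305 UMIs in KO and 1989011 in WT, so that 3 counts correspond to 7.87 and 1.51 CPM. Intervals are exact: Poisson for a level, conditional binomial for a ratio and Clopper-Pearson for a share. These cover counting error only. Log2 ratios used a prior count of 0.5, and a fold of 1.5 over genes with at least 20 UMIs served as the threshold, since 1 library per genotype allows no test. The study's MAST test treats cells as replicates and was not repeated. For shares and correlations, cells were thinned without replacement to 500 UMIs. The background profile came from barcodes of at most 100 UMIs. Doublets were not called; leaving out the deepest 5% of cells was an alternative.

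The genes named are all 10 of the set, the 3 highest and 3 lowest ratios of each list (50 UMIs or more), and the 8 genes most like the set across cells. Of these, 1 gene is not reported here. Marker lists of 12 cell types were summed; the lymphocyte and erythroid lists, given here once, stood at 99.7 and 58.3 CPM for B cells (Ighm gave 35 of 38 and 88 of 116 UMIs), 0 and 1.01 CPM for T or NK cells (1 of 4 genes listed) and 0 and 1.01 CPM for erythroid cells, in KO and WT. Neuron, oligodendrocyte and border macrophage markers summed to 52.5 and 65.4, 36.7 and 17.1, and 62.9 and 35.7 CPM. Of the border macrophage markers only Mrc1 was detected in KO (62.9 against 10.6 CPM in WT), while F13a1 had 0 UMIs in KO and 46 in WT. Members and lists were chosen with earlier results of these data known. Older symbols were matched through a RefSeq table. The calculations were tested on simulated data.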

Additional observations from a re-analysis of the deposited data

Results flagged for a closer look

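The summed set had opposite directions in the cells of each sex, with intervals that left out 1 on both sides. In cells with Xist and no Y-linked UMI the ratio of KO over WT was 1.15 (1.05 to 1.27), and in cells with a Y-linked UMI and no Xist it was 0.519 (0.289 to 0.863). The latter rests on 15 UMIs in 12 cells of KO, each sex is 1 mouse per library, and the difference between the sexes was not tested.

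Outside the cells, in barcodes of at most 100 UMIs, the intervals of the ratios of KO over WT lay above 1 for Jun, Jund, Atf3 and Btg2. The ratios there were 1.53 (1.23 to 1.91) for Jun, 3.83 (2.13 to 7.19) for Jund, 7.94 (1.69 to 74.6) for Atf3 and 1.51 (1.03 to 2.21) for Btg2. The value for Atf3 comes from 10 and 2 UMIs. Ier2 went the other way, at 0.318 (0.108 to 0.776). The share of all genes with such intervals in these barcodes was not computed, and the barcodes differ in depth between the libraries.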

How the results depend on the processing

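Over 13 alternatives (depth limits, thinning, other scalings, and cells or sexes left out), 109 of 117 log2 ratios of the 9 genes stayed within the main interval, 7 moved and 1 (Jund in Y cells) turned from past the fold; of the 7, Jun and Egr1 in Y cells also changed sign. Ier2 ran from -2.95 to -1.73, Junb from -1.19 to -0.36, Dusp1 from -1.17 to -0.23 and Btg2 from 0.67 to 1.02. Ier2 and Btg2 stayed past 1.5-fold under all 13, and Jund under all but the Y cells. Junb came to lie within the fold when thinned (-0.36) and in Xist cells (-0.55), and Dusp1 in cells of 1000 UMIs or more (-0.47) and in Y cells (-0.23). Atf3 did so when thinned (0.37), with free RNA subtracted (0.43), without the 3 cells with most UMIs of the set (0.15), without cells of other types (0.58) and in Xist cells (0.12). Egr1, within the fold in the main setting, lay past it on the higher side in cells of at least 1000 UMIs (0.59), at least 300 UMIs (0.60) and at least 100 genes alone (0.61), as a mean of single-cell CPM (0.59), without the deepest 5% (0.64) and in Xist cells (1.13), and on the lower side in Y cells (-1.70), as did Jun (-0.60). It stood at 0.06 without the 3 cells with most UMIs of the set and at 0.04 without cells of other types. Most moves came from the Y cells, where KO has 12 cells: Jund turned to -2.33 (0 UMIs in KO) and the summed set to -0.95, with 5 genes lower by the fold; in Xist cells the summed set was at 0.21. With a fold of 2, 0 genes of the set were higher and 1 lower (Ier2), while 13.5% of all genes were higher and 15.3% lower. In Y cells 53.1% and 16.7% of all genes were higher and lower, and with every gene of at least 1 UMI 43.6% were higher. Thinning, in a single random draw, moved Fos to 0.80, past the fold. The heat shock sum was at -1.29 in cells of 1000 UMIs or more. Other scalings moved the median of all genes by less than 0.1. With 1 library per genotype there is no replicate to leave out. No paired analysis was possible because each genotype has 1 library and no test was made.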
